A study of Mus musculus with 8 samples.

Results

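The RNA levels of 8 genes of the MHC class I system were followed in CD11b+ cells from the ascitic fluid of tumor-bearing mice that received an antibody against leukemia inhibitory factor (LIF). The genes were the heavy chains H2-K1, H2-T23, H2-M3 and H2-Q4, the light chain B2m, the transactivator Nlrc5 and the class I-like chains Cd1d1 and Mr1. They were taken by symbol, and the rule used no measured value, although earlier results of these data were known when the genes were chosen. Array features (sets of probes that give 1 value) whose only symbol was a member were taken and averaged per symbol, which gave 9 features for these 8 genes, out of 41345 features and 22180 genes in all. H2-Q4 had 2 features and each of the other 7 genes had 1. In the RefSeq annotation of the mouse genome (GRCm38.p6) the 4 heavy chains lie in the MHC on chromosome 17, B2m on chromosome 2, Nlrc5 on chromosome 8, Cd1d1 on chromosome 3 and Mr1 on chromosome 1.

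A class I molecule is a membrane-bound heavy chain held together with beta-2-microglobulin, the product of B2m, and it displays short peptides from inside the cell to CD8+ T cells. The peptides are cut by the proteasome, carried into the endoplasmic reticulum by the TAP transporter and loaded there with the help of tapasin. Nlrc5, a protein of the NOD-like receptor family, enters the nucleus and drives transcription of classical class I genes and their partners together with the RFX complex, and interferon-gamma induces both Nlrc5 and the class I pathway in many cell types, macrophages among them.

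ID8 cells, a mouse ovarian cancer line, were inoculated into the peritoneal cavity of 8-week-old female C57BL/6 mice. The 4 anti-LIF mice (replicates 5 to 8) received a LIF-neutralizing antibody 2 times a week for 25 days, starting on day 12 after inoculation by the sample labels, while a legend of the study gives a later start for this model. The 4 control mice (replicates 1 to 4) carried the same tumor and are labelled as untreated, while the methods describe a control IgG, so which of these they received is not settled here. CD11b+ cells were taken from ascites with magnetic beads, without a further sort, and RNA of each mouse was hybridized to 1 Affymetrix Mouse Gene 2.1 ST array. Values are RMA log2 intensities, so a difference of 1 is a doubling, and a level on this scale cannot be compared between genes.

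Over all features the arrays correlated at 0.960 to 0.974 within a group and at 0.935 to 0.964 between groups. The SD of an array's values was 1.946 to 1.971 with anti-LIF and 2.017 to 2.073 in controls, so the groups also differed in the spread of values. The CD11b gene Itgam differed by -0.17 (adjusted p = 0.59, limma) and the leukocyte marker Ptprc by -0.09 (adjusted p = 0.73, limma), both on the log2 scale. The 8 myeloid markers averaged 8.67 to 8.81 in anti-LIF mice and 8.98 to 9.73 in control mice. Of these, 3 were lower (Cd14, Tyrobp and Adgre1, adjusted p under 0.1 by limma), against 11% of all genes lower. None of the 8 changes was positive, and their median was -0.26.

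With anti-LIF, H2-T23 and Nlrc5 were higher, Mr1 was lower, and 5 of the 8 genes did not pass the test (limma, Benjamini-Hochberg adjusted p under 0.1 over all 22180 genes). The share of all genes that passed was 16.8%, with 5.79% higher and 11% lower in anti-LIF mice. The change was positive in 6 of the 7 genes with 1 feature, Mr1 being the exception, and the features of H2-Q4 disagreed in sign. The median over the 8 genes was 0.21 on the log2 scale, against 0.03 over all genes. The groups did not overlap for 2 of the 8 genes, against 18.5% of all genes. Tested feature by feature, 1 of their 9 features passed, that of Mr1, against 12.5% of all features, and none was higher, against 4.93%. In these bulk samples a smaller share of cells of a type and less RNA per cell cannot be told apart. The plot of members by mouse shows each array's value.

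**Figure D1:**
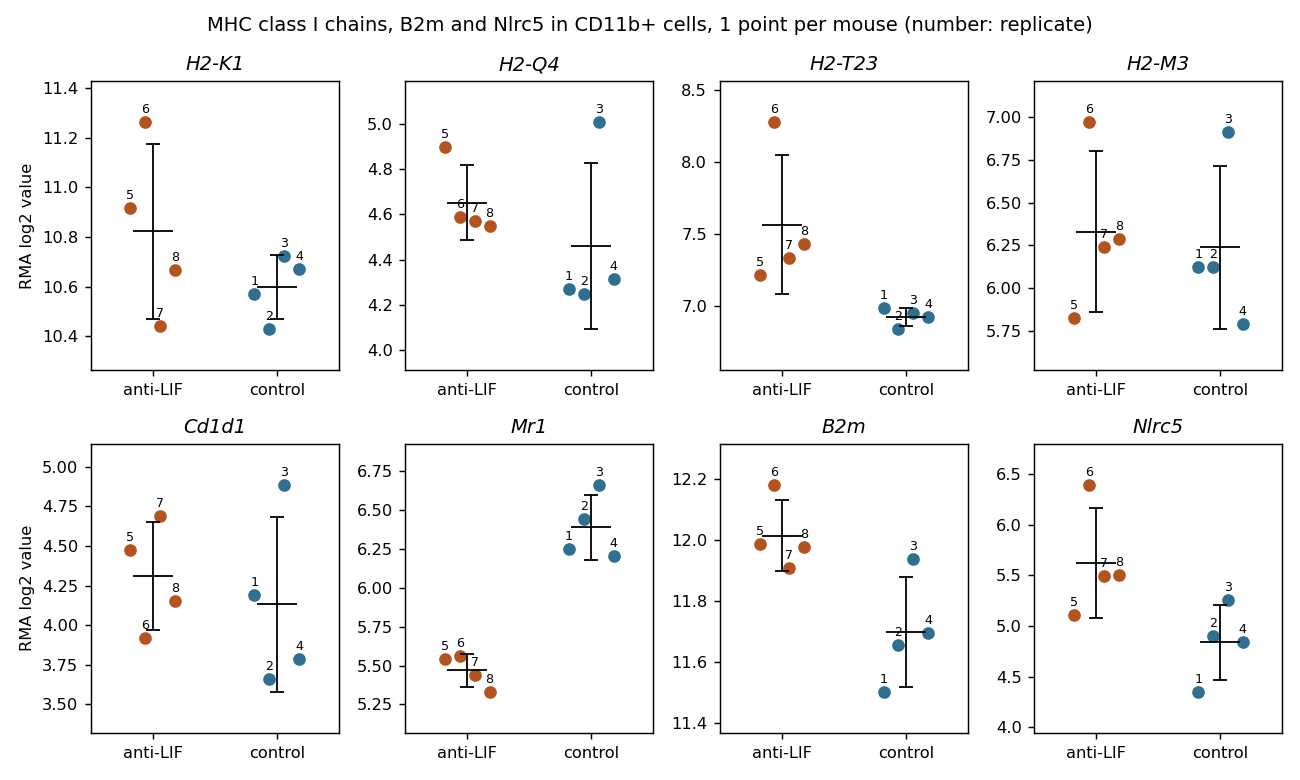
RMA log2 intensity of the 8 genes (vertical axis, a separate range per panel) in anti-LIF mice (left) and control mice (right), 1 point per mouse with the mean and SD bars of 4 mice. The groups do not overlap for H2-T23, where anti-LIF lies higher, and for Mr1, where anti-LIF lies lower.

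Nlrc5 had log2 levels of 5.11, 6.39, 5.50 and 5.50 in anti-LIF replicates 5 to 8, against 4.35, 4.90, 5.25 and 4.84 in control replicates 1 to 4. Anti-LIF replicate 6 was the highest of the 8 mice, and the groups overlapped because control replicate 3 exceeded anti-LIF replicate 5. The mean was 5.63 ± 0.54 with anti-LIF and 4.84 ± 0.37 in controls (SD, n = 4 each), a change of 0.79 (SE 0.26, 95% confidence interval 0.22 to 1.36, 1.73-fold, adjusted p = 0.077 by limma, exact two-sided permutation p = 0.057). The smallest p that 4 against 4 allows in the permutation test is 0.029. The call was lost when any of 6 mice was left out in turn (control replicates 1, 2 and 4, anti-LIF replicates 6, 7 and 8), with adjusted p of 0.118 to 0.160 by limma, and the change was 0.53 without anti-LIF replicate 6. It was also lost after median centring of the arrays (0.70, adjusted p = 0.113, limma).

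H2-K1 encodes the classical heavy chain H-2K, which presents peptides to CD8+ T cells. Its log2 levels were 10.92, 11.26, 10.44 and 10.67 in anti-LIF replicates 5 to 8, against 10.57, 10.43, 10.72 and 10.67 in control replicates 1 to 4. Anti-LIF replicates 5 and 6 were above all controls, and the other two lay within the control range. The means were 10.82 ± 0.35 with anti-LIF and 10.598 ± 0.129 in controls (SD, n = 4 each), and the change of 0.22 (SE 0.17, 95% confidence interval -0.15 to 0.60) did not pass the test (adjusted p = 0.44, limma). It was 0.08 without anti-LIF replicate 6 and 0.35 without anti-LIF replicate 7.

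H2-T23 encodes the heavy chain of Qa-1, which presents leader peptides of other class I chains to the CD94/NKG2 receptors of NK and T cells. Its levels were 7.22, 8.28, 7.34 and 7.43 in anti-LIF replicates 5 to 8, against 6.99, 6.84, 6.95 and 6.92 in control replicates 1 to 4. Every anti-LIF mouse was above every control mouse, the controls lay close together, and anti-LIF replicate 6 stood far above the other anti-LIF mice. The mean was 7.56 ± 0.48 with anti-LIF and 6.92 ± 0.062 in controls (SD, n = 4 each), a change of 0.64 (SE 0.21, 95% confidence interval 0.19 to 1.09, 1.56-fold, adjusted p = 0.071 by limma, exact two-sided permutation p = 0.029). Of all genes, 6.53% had every anti-LIF mouse above every control mouse. Without anti-LIF replicate 6 the change was 0.40 and still passed (adjusted p = 0.082, limma). The call was lost without any single control (adjusted p = 0.1002 to 0.149, limma), without anti-LIF replicate 8 (adjusted p = 0.104, limma) and after median centring of the arrays (0.55, adjusted p = 0.110, limma).

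H2-M3 encodes a nonclassical chain that presents N-formylated peptides, such as those of bacteria and mitochondria. Its levels were 5.83, 6.97, 6.24 and 6.29 in anti-LIF replicates 5 to 8, against 6.12, 6.12, 6.91 and 5.79 in control replicates 1 to 4. The groups covered almost the same range, with 1 high mouse in each. The means were 6.33 ± 0.47 with anti-LIF and 6.24 ± 0.48 in controls (SD, n = 4 each). The change was 0.09 (SE 0.27, 95% confidence interval -0.49 to 0.67, adjusted p = 0.86, limma), and it was -0.12 without anti-LIF replicate 6, -0.06 without control replicate 4 and 0.32 without control replicate 3.

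H2-Q4, a nonclassical chain of the Q region, had averaged levels of 4.90, 4.59, 4.57 and 4.55 in anti-LIF replicates 5 to 8, against 4.27, 4.25, 5.01 and 4.32 in control replicates 1 to 4. Control replicate 3 was the highest of all mice, and the other 3 controls were below every anti-LIF mouse. The change was 0.19 (SE 0.18, 95% confidence interval -0.20 to 0.59, adjusted p = 0.53, limma), and it lay between 0.11 (without anti-LIF replicate 5) and 0.37 (without control replicate 3) with each mouse left out in turn. The 2 features of H2-Q4 disagreed in direction, with a change of -0.24 in one (adjusted p = 0.48 over all features, limma) and of 0.63 in the other (adjusted p = 0.15 over all features, limma), so no direction is given for this gene.

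B2m had levels of 11.99, 12.18, 11.91 and 11.98 in anti-LIF replicates 5 to 8, against 11.50, 11.65, 11.94 and 11.70 in control replicates 1 to 4. Control replicate 3 exceeded anti-LIF replicate 7, and the other controls were below all anti-LIF mice. The mean was 12.01 ± 0.12 with anti-LIF and 11.70 ± 0.18 in controls (SD, n = 4 each). The change of 0.32 (SE 0.13, 95% confidence interval 0.03 to 0.61, 1.25-fold) did not pass over all genes (adjusted p = 0.15 by limma, exact two-sided permutation p = 0.057).

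Cd1d1 presents lipids to natural killer T cells. Its levels were 4.48, 3.92, 4.69 and 4.16 in anti-LIF replicates 5 to 8, against 4.19, 3.66, 4.88 and 3.79 in control replicates 1 to 4. The highest and the lowest mouse were both controls. The means were 4.31 ± 0.34 with anti-LIF and 4.13 ± 0.55 in controls (SD, n = 4 each), a change of 0.18 (SE 0.26, 95% confidence interval -0.38 to 0.74, adjusted p = 0.70, limma). Leaving out anti-LIF replicate 6 or 7 gave a change of 0.31 or 0.053, and leaving out control replicate 2, 3 or 4 gave 0.022, 0.43 or 0.065.

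Mr1 presents small metabolites of microbial riboflavin synthesis to mucosal-associated invariant T cells. Its levels were 5.54, 5.56, 5.44 and 5.33 in anti-LIF replicates 5 to 8, against 6.25, 6.44, 6.66 and 6.21 in control replicates 1 to 4. All anti-LIF mice were below all control mice, as 11.9% of all genes were. The mean was 5.47 ± 0.11 with anti-LIF and 6.39 ± 0.21 in controls (SD, n = 4 each), a change of -0.92 (SE 0.14, 95% confidence interval -1.22 to -0.62, 1.89-fold lower, adjusted p = 0.0034 by limma, exact two-sided permutation p = 0.029). Mr1 kept its call without any single mouse (-0.98 to -0.83, adjusted p = 0.0053 to 0.013, limma). Anti-LIF replicate 6, the highest mouse for Nlrc5 and H2-T23, did not stand apart here.

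**Figure D2:**
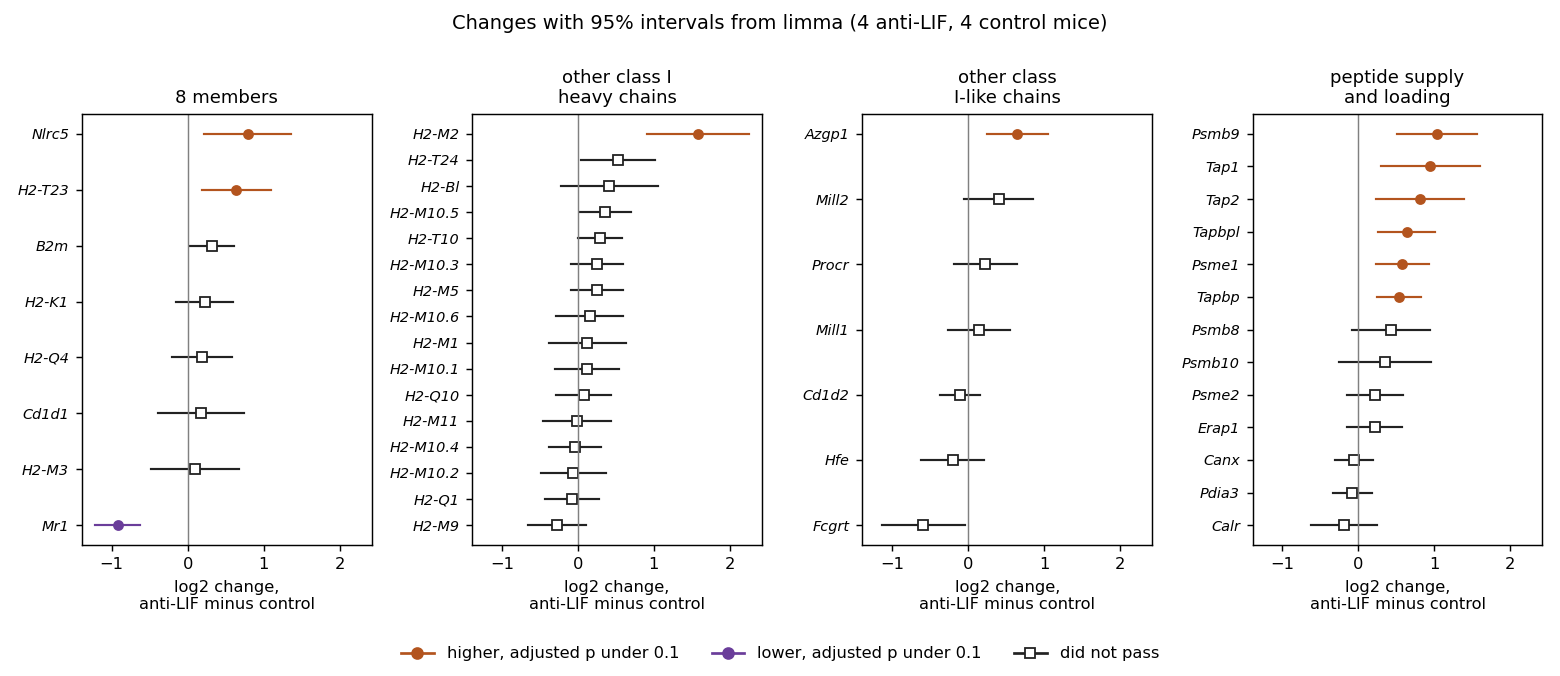
Anti-LIF minus control log2 change (horizontal axes) with its 95% confidence interval from limma, for the 8 genes (left), other class I heavy chains, other class I-like chains and genes of peptide supply and loading, with filled symbols at an adjusted p under 0.1. In the left panel the interval of Mr1 lies below 0, those of H2-T23, Nlrc5 and B2m lie above 0, and those of H2-K1, H2-M3, H2-Q4 and Cd1d1 include 0.

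**Figure D3:**
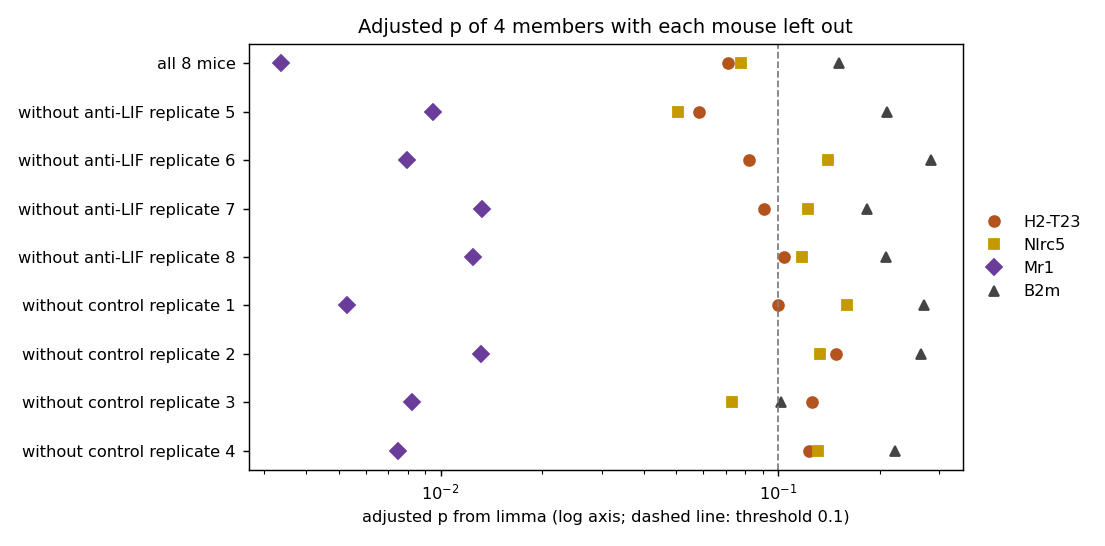
Adjusted p from limma (horizontal log axis) of H2-T23, Nlrc5, Mr1 and B2m in all 8 mice and with each mouse left out in turn (rows), with the threshold of 0.1 as a dashed line. Mr1 stays between 0.0053 and 0.013 with a mouse left out, while H2-T23 and Nlrc5 lie on both sides of the line and B2m lies to its right.

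The change of Nlrc5 was set against that of each of the other 7 genes within the same mice (difference of log2 changes, exact two-sided permutation test, p adjusted over the 7 comparisons). None of the 7 differences passed at an adjusted p under 0.1. Because 0.029 is the smallest p possible, 1 or 2 differences at that value cannot by themselves reach an adjusted p under 0.1 over 7 comparisons, so this outcome is limited by the design. Nlrc5 changed by 1.71 more than Mr1 and by 0.70 more than H2-M3 (exact permutation p = 0.029 and adjusted p = 0.1 for both), and the groups did not overlap in either. The difference from H2-K1 was 0.56 (exact permutation p = 0.086, adjusted p = 0.2), that from B2m 0.47 (exact permutation p = 0.11, adjusted p = 0.2) and that from H2-T23 0.15 (exact permutation p = 0.6, adjusted p = 0.6).

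The promoters of the members are shown because Nlrc5 and interferon-induced factors act on short elements there. RefSeq (GRCm38.p6) gave windows of 250 bases before to 50 after the start for 6 of the 8 genes (all but Nlrc5 and Cd1d1), and those of H2-K1, H2-T23, B2m and Mr1 are printed 5′ to 3′ on the gene's strand, with motif matches on either strand in capitals. H2-K1 lies at chr17:34000298-34000597 (minus strand, the first of its 2 starts), H2-T23 at chr17:36032652-36032951 (minus strand), B2m at chr2:122147437-122147736 (plus strand) and Mr1 at chr1:155146765-155147064 (minus strand).
H2-K1: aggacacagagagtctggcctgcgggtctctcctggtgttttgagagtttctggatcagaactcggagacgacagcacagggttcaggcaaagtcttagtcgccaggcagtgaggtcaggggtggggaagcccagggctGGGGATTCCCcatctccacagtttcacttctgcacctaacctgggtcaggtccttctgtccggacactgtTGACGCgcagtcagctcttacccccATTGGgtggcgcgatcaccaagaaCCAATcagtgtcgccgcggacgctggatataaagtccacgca
H2-T23: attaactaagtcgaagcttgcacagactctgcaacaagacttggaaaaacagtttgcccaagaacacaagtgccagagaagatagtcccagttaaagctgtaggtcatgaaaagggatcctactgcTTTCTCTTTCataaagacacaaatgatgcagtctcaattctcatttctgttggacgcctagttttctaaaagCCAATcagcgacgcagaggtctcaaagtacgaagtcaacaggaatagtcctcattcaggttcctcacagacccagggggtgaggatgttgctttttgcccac
B2m: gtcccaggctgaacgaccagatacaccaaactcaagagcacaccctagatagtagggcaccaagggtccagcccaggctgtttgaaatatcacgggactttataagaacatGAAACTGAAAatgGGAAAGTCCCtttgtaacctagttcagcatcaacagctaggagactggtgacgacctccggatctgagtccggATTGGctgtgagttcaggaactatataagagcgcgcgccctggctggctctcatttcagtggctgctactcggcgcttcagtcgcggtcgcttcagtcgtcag
Mr1: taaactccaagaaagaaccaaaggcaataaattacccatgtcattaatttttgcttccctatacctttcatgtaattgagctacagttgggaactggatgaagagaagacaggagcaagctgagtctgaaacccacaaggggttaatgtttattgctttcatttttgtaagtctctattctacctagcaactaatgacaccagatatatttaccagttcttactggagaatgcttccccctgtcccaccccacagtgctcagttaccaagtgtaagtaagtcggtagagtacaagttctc

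The letters searched, on both strands, were TTTC, any 2 bases and TTTC (the core of the interferon-stimulated response element, in 3.44% of 32851 promoter windows), the NF-kB site of the H2-K type (the first run of capitals in H2-K1, 0.107%), GGGA, any base and TTTCC (an NF-kB site of the kappa type, 0.411%), ATTGG (the Y box core, 37.4%), TGACGC (X2 box letters, 7.4%), TGACGTCA (the cAMP response element, 1.79%) and TTCNNNGAA (the interferon-gamma activated site, 8.3%). Counted from the RefSeq start, H2-K1 held the H2-K type NF-kB site at -111 to -102, the X2 letters at -41 to -36 and ATTGG at -16 to -12 and, on the other strand, at 9 to 13. H2-T23 held the interferon-stimulated core at -124 to -115 and, on the other strand, ATTGG at -52 to -48. B2m held, on the other strand, the interferon-stimulated core at -139 to -130 and the kappa-type NF-kB letters at -126 to -117, and on its own strand ATTGG at -53 to -49. H2-M3 held the X2 letters at -46 to -41, TTCNNNGAA at -209 to -201 and ATTGG at -129 to -125, at -21 to -17 and, on the other strand, at -36 to -32. H2-Q4 held ATTGG at -79 to -75 and, on the other strand, ATTGG at -55 to -51 and the X2 letters at 31 to 36. The window of Mr1 matched none of these letters, and the cAMP element was in none of the windows of these 6 genes. A match describes the letters only. Only these exact letters were searched, so a window without a match may still hold a variant of an element.

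**Figure D4:**
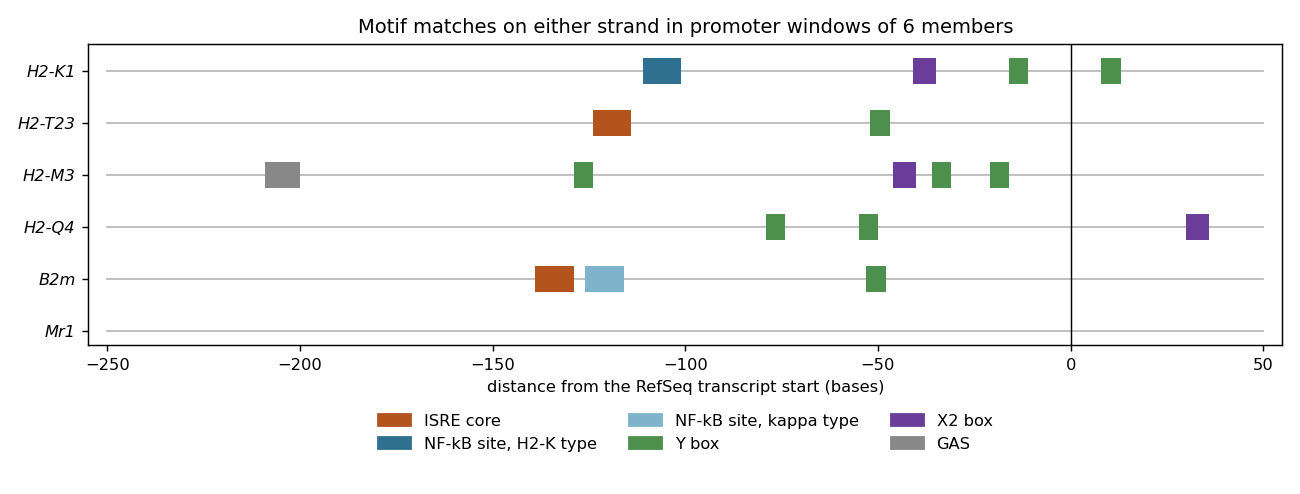
Positions of the motif matches in the promoter windows, as distance in bases from the RefSeq start (horizontal axis), 1 row per gene. H2-T23 and B2m hold the exact letters searched for the interferon-stimulated core, and the row of Mr1 is empty. Variants of an element were not searched.

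Of 27 other class I heavy chains listed, 16 had a feature of their own, 9 had only features shared with other genes and 2 had none. H2-M2, a heavy chain of the M region, was the only one of the 16 that passed, against 5.79% of all genes higher and 16.8% called in either direction, so the count was near the share over all genes. Its levels were 5.99, 7.19, 5.45 and 6.20 in anti-LIF replicates 5 to 8, against 4.71, 4.50, 4.28 and 5.02 in control replicates 1 to 4. All anti-LIF mice were above all controls, and replicate 6 was again the highest. The change was 1.58 (SE 0.31, 2.99-fold, adjusted p = 0.0097, limma). The other 15 differed by -0.28 to 0.53, and the median of the 16 was 0.14, against 0.03 over all genes. Without control replicate 3, 2 of them passed. The genes of this family are similar in sequence, and whether a feature with 1 symbol also binds RNA of other copies was not tested.

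H2-D1, the other classical heavy chain of C57BL/6 mice, had only a feature that lists H2-Q2 and H2-D1 together. Its levels were 4.97, 5.14, 4.54 and 4.51 in anti-LIF replicates 5 to 8, against 4.32, 4.97, 5.11 and 4.65 in control replicates 1 to 4. The change was 0.03 (adjusted p = 0.95 over all features, limma). How far this feature reads RNA of H2-D1 was not tested, so no result is given for H2-D1. A feature that lists H2-Q7, H2-Q9 and H2-Q8, nonclassical chains of the Q region, had levels of 8.09, 8.48, 8.10 and 8.23 in anti-LIF replicates 5 to 8, against 7.95, 7.89, 7.98 and 8.00 in control replicates 1 to 4. Its groups did not overlap, but the change of 0.27 did not pass (adjusted p = 0.24 over all features, limma). A second feature with the same 3 symbols had levels of 4.59, 5.18, 4.62 and 4.78 in anti-LIF replicates 5 to 8, against 4.17, 4.05, 5.14 and 4.43 in control replicates 1 to 4. Its groups overlapped, and the change was 0.35 (adjusted p = 0.43 over all features, limma). Of 7 class I or related features shared between genes, 1 had every anti-LIF mouse above every control mouse, against 7.1% of all features. The 7 changes ranged from -0.87 to 0.51. None of the 7 passed as higher and 1 passed as lower, that of Raet1e and Raet1d described below, against 12.5% of all features in either direction.

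The 13 genes of peptide supply and loading had a median change of 0.43, with 6 higher, none lower and 7 not past the test, against 5.79% of all genes higher. They were Psmb9, an immunoproteasome subunit (1.03, adjusted p = 0.020, limma), Tap1 and Tap2, the transporter subunits (0.95 and 0.81, adjusted p = 0.065 and 0.076, limma), Tapbp, which encodes tapasin (0.53, adjusted p = 0.028, limma), its relative Tapbpl (0.64, adjusted p = 0.038, limma) and Psme1, a proteasome activator subunit (0.58, adjusted p = 0.042, limma). Psmb9 had log2 levels of 8.24, 9.53, 8.76 and 8.68 in anti-LIF replicates 5 to 8, against 7.85, 7.62, 8.07 and 7.54 in control replicates 1 to 4. Its groups did not overlap. Psmb8, another immunoproteasome subunit, differed by 0.43 (adjusted p = 0.27, limma). Without control replicate 2, 3 of the 13 genes passed.

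Of 17 listed regulators of MHC genes and related factors, 14 were measured, with 2 higher, 3 lower and a median of -0.14. The shares of all genes were 5.79% higher and 11% lower. The 2 higher regulators were Ciita, the class II counterpart of Nlrc5, and Irf1, an interferon-induced transcription factor. Ciita had levels of 6.90, 7.92, 6.82 and 7.31 in anti-LIF replicates 5 to 8, against 6.01, 5.54, 5.28 and 5.07 in control replicates 1 to 4, a change of 1.76 (adjusted p = 0.0034, limma). Irf1 had levels of 6.56, 7.58, 6.71 and 6.84 in anti-LIF replicates 5 to 8, against 5.70, 6.04, 6.10 and 5.97 in control replicates 1 to 4, a change of 0.97 (adjusted p = 0.015, limma). Both were separate between the groups. Rfxap, a subunit of the RFX complex, fell by 0.74 (adjusted p = 0.016, limma), Rela, a subunit of NF-kB, by 0.49 (adjusted p = 0.022, limma) and Creb1, a factor that binds the X2 box, by 0.40 (adjusted p = 0.043, limma). Rfx5, the largest RFX subunit, differed by 0.28 (adjusted p = 0.24, limma). Without control replicate 1, 5 of these regulators were lower.

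Of 17 interferon-gamma induced genes, listed with earlier results of these data known, 14 were measured. Of these, 11 were higher and none lower, against 5.79% of all genes higher. The changes had a median of 1.95 and a range of 0.53 to 3.07, against a median of 0.03 over all genes. The mean log2 level of the 14 genes was 6.59, 8.52, 6.72 and 7.33 in anti-LIF replicates 5 to 8, against 5.39, 5.37, 5.68 and 5.49 in control replicates 1 to 4. Anti-LIF replicate 6 had the highest level of the 8 mice in 13 of the 14 genes, the same mouse that was highest for Nlrc5, H2-T23, H2-K1, H2-M3 and B2m. The part of this in the members' changes was not tested.

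**Figure D5:**
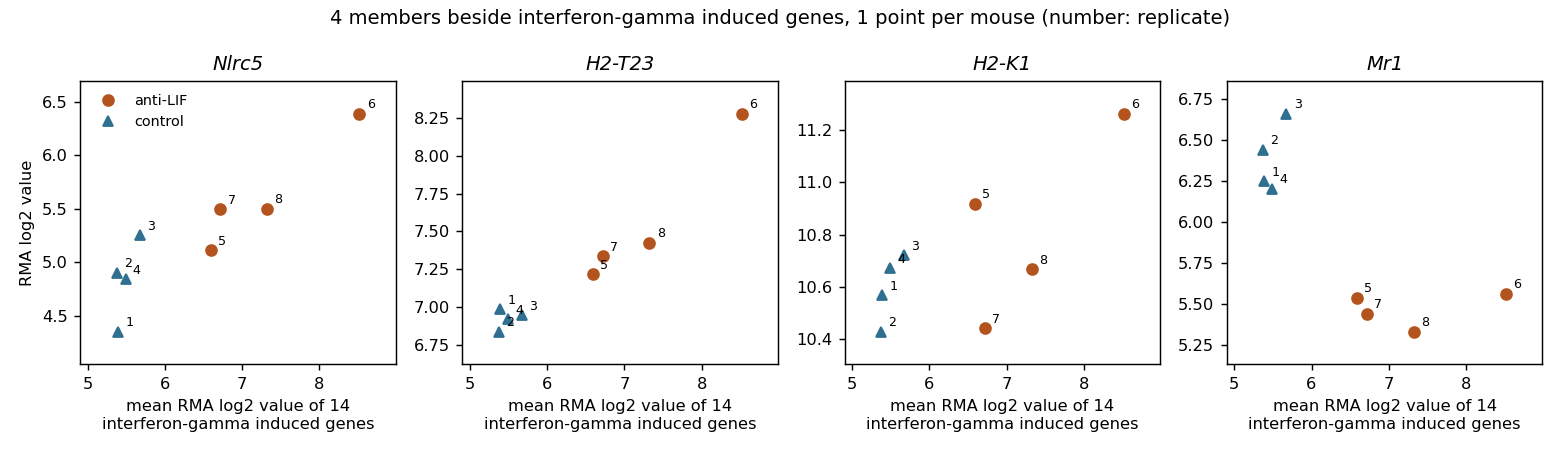
Log2 level of Nlrc5, H2-T23, H2-K1 and Mr1 (vertical axes) against the mean log2 level of 14 interferon-gamma induced genes in the same mouse (horizontal axis), 1 point per mouse. The anti-LIF mice lie at 6.59 to 8.52 and the control mice at 5.37 to 5.68 on the horizontal axis.

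Markers of other cell types were read in the same arrays, where 5.79% of all genes were higher and 11% lower. The 17 measured T and NK cell markers averaged 3.89 to 4.41 in anti-LIF mice and 3.78 to 3.93 in control mice, with Cd8a and Nkg7 higher and Klrd1, a chain of the CD94/NKG2 receptor that binds Qa-1, lower (-0.98). The other 14 did not pass the test, and 15 of the 17 changes were positive. The 7 measured B and plasma cell markers averaged 4.39 to 4.56 in anti-LIF mice and 3.64 to 4.10 in control mice. These averages include Jchain, which was higher (3.20), while the other 6 markers did not pass the test (changes of -0.14 to 0.52). The 8 measured dendritic cell markers averaged 5.33 to 5.41 in anti-LIF mice and 4.98 to 5.33 in control mice, with Zbtb46 higher. The other 7 did not pass the test (changes of -0.09 to 0.94), and the largest change in these averages was that of Bst2 (0.94). The 9 neutrophil markers averaged 5.09 to 5.48 with anti-LIF and 5.29 to 5.71 in controls, with S100a8 lower. The other 8 did not pass the test, and 4 of the 9 changes were positive. The 10 tumor and mesothelial markers averaged 8.40 to 8.68 with anti-LIF and 8.14 to 8.64 in controls, with Muc16 and Lrrn4 higher and Krt18 and Krt19 lower. The other 6 did not pass the test. The part of these cell types in the members' changes was not tested.

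The genes whose pattern over the 8 mice was most like that of a called member were found by the root mean square difference of mean-centred log2 values, over 18693 genes. Those nearest to Nlrc5 were Olfr791 (0.13), Irf1 (0.17) and Marco (0.18). Those nearest to H2-T23 were Cenpj (0.13), Tceal6 (0.14) and Gtf2a1l (0.14), and those nearest to Mr1 were Slc35f6 (0.075), Tfb2m (0.078) and Spcs3 (0.081). The root mean square of the members' own deviations was 0.56 for Nlrc5, 0.44 for H2-T23 and 0.48 for Mr1. Near Nlrc5, Irf1 passed the test, while Olfr791 and Marco did not (adjusted p = 0.101 and 0.142, limma). Near H2-T23, Gtf2a1l passed, while Cenpj and Tceal6 did not (adjusted p = 0.131 and 0.174, limma). These are the closest of 18693 genes over 8 mice. They were picked for likeness to a called member, so their own test results largely follow from that choice. Whether any is regulated together with a member was not tested.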

How the data were processed

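CD11b+ cells of 8 mice (4 anti-LIF, 4 control) were profiled on 1 array each. The log2 values deposited by the authors were made by RMA (background correction, quantile normalization and probe summary), and the submitters' processing notes name R 3.1.2. The RMA software is not given in the sources used here. RMA compresses differences of dim features, and probe-level detection was not used here, so precision rests on the number of arrays. Features were named by GEO's platform annotation: 23521 had 1 symbol, 1820 several and 16004 none, and only the first were averaged per symbol (22180 genes). Each gene was tested between groups by limma 3.58.1 (R 4.3.3, linear fit with eBayes, no pairs) with Benjamini-Hochberg adjustment over all genes, at the study's threshold of 0.1. The p-values measure the spread between mice. Exact permutation tests ran over 70 assignments. The methods describe paired samples but no source names the pairs, so all 24 pairings were run as a replicate block. The working of the test was checked on simulated data with 200 changed genes and noise drawn separately for each gene. Fewer genes changed there than were called here, so the check gives no error rate for these data. All 8 genes are named. Of the other lists, called genes with the largest change are named, along with a few pathway genes whether called or not. The genes and lists were chosen with earlier results of these data known. Alternatives covered scaling, a filter on dim genes, feature choice, annotation, variance model, array weights, threshold and mice left out.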

Additional observations from a re-analysis of the deposited data

Results flagged for a closer look

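H2-Q4 was marked in both groups because 1 mouse stood far from the other 3. In anti-LIF mice the gap of replicate 5 to its nearest neighbour was 0.888 of the group's range, and in control mice that of replicate 3 was 0.911, both above Dixon's 95% critical value. Of 16 groups checked (8 genes, 2 groups each), chance marks about 1 in 20.

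A feature that lists Raet1e and Raet1d, ligands of the activating receptor NKG2D with a class I-like fold, was outside the comparisons by gene because it carries 2 symbols. Its log2 levels were 5.29, 5.78, 4.94 and 5.07 in anti-LIF replicates 5 to 8, against 6.05, 6.03, 6.21 and 6.26 in control replicates 1 to 4. The change was -0.87 (adjusted p = 0.027 over all features, limma), and the groups did not overlap.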

How the results depend on the processing

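Mr1 kept its direction and its call in all 19 alternatives run. With quantile normalization run again, which gives all arrays the same spread, genes higher numbered 1093 and genes lower 1798 in place of 2448. H2-T23 (0.78, adjusted p = 0.043, limma) and Nlrc5 (0.79, adjusted p = 0.098, limma) kept their calls there. With arrays centred on their medians, genes higher numbered 749 in place of 1284 (18.7% of the called genes higher in place of 34.4%), members higher 0, and H2-T23 (0.55) and Nlrc5 (0.70) lost their calls. At an adjusted p under 0.05, genes higher numbered 674 and members higher 0, so H2-T23 (0.64) and Nlrc5 (0.79) were not called. With each feature tested on its own, 2038 features and 0 members were higher. B2m (0.32) passed among genes above the median level (adjusted p = 0.074, limma) and with trend and robust settings (adjusted p = 0.050, limma). H2-Q4 was -0.24 by its brighter feature, by which Nlrc5 minus H2-M3 (0.70), H2-Q4 (1.03) and Mr1 (1.71) passed (adjusted p = 0.067, exact permutation test). The differences from H2-M3 and Mr1 were the same as in the main run. Their adjusted p moved from 0.1 only because the difference from H2-Q4 also reached the smallest possible p. Cd1d1 and H2-Q4 lie below the median level and have no value there.

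The 24 possible pairings used as a replicate block called H2-T23 and Mr1 in all 24 and Nlrc5 in 18 (highest adjusted p = 0.147 at 0.79, limma), so 1 member was higher in the least favourable. With each mouse left out in turn, genes higher numbered 802 to 1357, genes lower 1644 to 2445 and members higher 0 to 2. The changes ranged over 0.08 to 0.35 for H2-K1, 0.40 to 0.76 for H2-T23, -0.12 (without anti-LIF replicate 6) to 0.32 for H2-M3, which was -0.06 without control replicate 4, 0.11 to 0.37 for H2-Q4, 0.25 to 0.40 for B2m, 0.53 to 0.96 for Nlrc5, 0.02 to 0.43 for Cd1d1 and -0.98 to -0.83 for Mr1. Nlrc5 minus each other gene ranged over 0.41 to 0.77 (H2-K1), -0.034 (without control replicate 1) to 0.28 (H2-T23), 0.57 to 0.85 (H2-M3), 0.32 to 0.85 (H2-Q4), 0.27 to 0.63 (B2m), 0.23 to 0.84 (Cd1d1) and 1.49 to 1.90 (Mr1). Without anti-LIF replicate 5 the differences from H2-K1, H2-M3, H2-Q4, B2m and Mr1 passed (0.77, 0.70, 0.85, 0.63 and 1.90). Of 457 alternatives over all results, 5 reversed a direction, 18 lost a call, 10 gained one and 30 were marked for a moved count. Counts have no direction to reverse, and the pairings keep the change of the main run, so the 5 cannot be read against all 457. The causes were not tested.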

Other observations

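Genes around the class I pathway that the comparisons above leave out also differed between the groups. Over all genes, 5.79% were higher, 11% lower and 16.8% called in either direction. The constitutive proteasome subunits Psmb6 and Psmb7, which immunoproteasome subunits replace, were lower with anti-LIF (-0.58 and -0.56, adjusted p = 0.024 and 0.019, limma), while Psmb5 differed by -0.28 and did not pass. A list of receptors of the class I binding families on myeloid cells had 4 measured genes, not all of which are established to bind class I. Lilrb4a, an inhibitory receptor for which class I is not an established ligand, was lower (-0.96, adjusted p = 0.043, limma), a call lost without control replicate 3 or anti-LIF replicate 5 or 7. Of 7 other class I-like chains, only Azgp1 passed (higher by 0.65, adjusted p = 0.044, limma), so the count was near the share over all genes. The call of Azgp1 was lost without control replicate 2 or 3 or anti-LIF replicate 5, 7 or 8. Fcgrt, the heavy chain of the neonatal Fc receptor, differed by -0.59 (adjusted p = 0.16, limma). Of 3 measured NKG2D ligands with a feature of their own, none passed (limma, 0 at an unadjusted p under 0.05), and their changes lay between -0.11 and 0.29.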
